A study of Mus musculus with 5 samples.

Results

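DNA replication and S phase genes were compared between blood stem and progenitor cells of MSI2-inducible and control mice. The set was named gene by gene and holds 37 genes that copy DNA, supply its building blocks or rebuild chromatin behind the fork. Each gene was read from the probe set with the highest mean over the arrays, among those whose platform annotation gave that 1 symbol. By this rule 36 of the 37 genes had a value, out of 18193 genes in all. Chaf1a, the large subunit of chromatin assembly factor 1, had no such probe set and was not analysed here.

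RNA from 5 sorted bone marrow samples was hybridised to Affymetrix mouse arrays, 1 sample per array. The 3 control samples came from C57BL/6 mice with rtTA, the transactivator that doxycycline switches on in inducible transgenic systems. The 2 other samples came from C57BL/6 mice with inducible MSI2, a Musashi protein that binds RNA. The labels give neither the age of the mice, nor the promoter or integration site of the transgene, nor whether or for how long it was induced, nor whether the MSI2-inducible mice carry rtTA as well. Whether replicates stand for different mice is unstated, and the p-values therefore reflect only array-to-array spread, possibly of technical origin. The sample labels name lineage-low, Sca1-positive, Kit-positive cells, whereas the series text names Kit-positive cells that lack Sca1, so the gate is uncertain.

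Replication is prepared in G1, when the origin recognition complex, Cdc6 and Cdt1 load the still inactive ring of Mcm2 to Mcm7 onto origins. In S phase, Cdc45 and the GINS complex join that ring to form the active helicase, primase and the DNA polymerases copy both strands, and the sliding clamp PCNA, placed by replication factor C, holds the polymerases on DNA. Many of these genes are switched on together before S phase by E2F transcription factors, so their joint level is commonly read as a sign of cycling. In bone marrow, long-term stem cells rarely divide and the progenitors below them divide often. In bulk samples, fewer cells of a type and less RNA per cell cannot be told apart.

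Promoter letters are a feature that does not depend on the array values. The choice of genes is not independent of the E2F letters, since many of these genes are known to be switched on by E2F. RefSeq promoter windows (GRCm38.p6, 250 bases before to 50 after a gene's start) were available for 32 of the 37 genes. The E2F site was searched on both strands as TTTCCCGC, TTTCGCGC, TTTGCCGC and TTTGGCGC, and matches on opposite strands can overlap. It was found in 14 of the 32 genes (43.8%), against 2.6% of 27025 genes with a window and 3.81% of the 14452 that were also tested here. Of all 32851 windows, 2.26% held it. The letters were also found in the S phase regulators, in 7 of 15 genes (46.7%), and were found in 10 of 50 other replication genes (20%). A match is a description of the letters, not evidence of a bound site.

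Promoter stretches are printed from the window's upstream part, up to the last base before the gene's start. The capitals mark E2F letters, and the stretches were picked because 5 of them show how these letters are placed while the other two belong to Mcm10 and Tyms, which had the highest and the lowest difference of the set and hold none in the window.
Mcm6, GRCm38.p6 chr1:128359706-128359825, minus strand: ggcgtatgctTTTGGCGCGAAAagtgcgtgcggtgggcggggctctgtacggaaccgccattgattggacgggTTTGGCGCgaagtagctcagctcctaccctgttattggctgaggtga
Cdc6, GRCm38.p6 chr11:98908001-98908150, plus strand: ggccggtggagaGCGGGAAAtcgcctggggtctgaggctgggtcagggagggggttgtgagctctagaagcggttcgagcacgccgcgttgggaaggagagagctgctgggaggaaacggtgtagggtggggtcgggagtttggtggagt
Orc1, GRCm38.p6 chr4:108579394-108579453, plus strand: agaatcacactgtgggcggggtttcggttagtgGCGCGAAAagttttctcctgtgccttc
Gins3, GRCm38.p6 chr8:95633499-95633558, plus strand: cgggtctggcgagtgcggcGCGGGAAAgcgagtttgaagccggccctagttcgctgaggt
Hells, GRCm38.p6 chr19:38930910-38930989, plus strand: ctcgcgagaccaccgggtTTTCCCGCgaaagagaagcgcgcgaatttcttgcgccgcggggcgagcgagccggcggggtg
Mcm10, GRCm38.p6 chr2:5012792-5012911, minus strand: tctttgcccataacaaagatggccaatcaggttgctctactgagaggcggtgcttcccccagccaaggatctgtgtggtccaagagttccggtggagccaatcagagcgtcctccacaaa
Tyms, GRCm38.p6 chr5:30073626-30073745, minus strand: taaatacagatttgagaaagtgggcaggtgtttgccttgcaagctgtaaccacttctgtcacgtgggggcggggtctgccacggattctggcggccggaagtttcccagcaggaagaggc

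In Mcm6 the letters occurred 3 times, and the first match overlapped the one on the other strand. The matches of Orc1, Gins3 and Hells began 27, 41 and 62 bases before the start, and that of Cdc6 began 138 bases before it. Among the helicase subunits, 4 of the 5 genes with a window held the letters (Mcm3, Mcm5, Mcm6 and Mcm7), and Mcm2 did not. Over the set, 13 matches began before the start and 7 after it.

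The other promoter letters differed from the E2F letters in how they were spread over the lists. The CHR is an element known from genes of G2 and mitosis and was searched as TTTGAA. It was found in 4 of the 32 genes (12.5%) against 20.2% of all genes, or 15.7% of the genes that were also tested here. Among the 17 mitosis genes with a window it was found in 12 (70.6%), and the E2F letters in 1 (5.88%). The CCAAT box, which binds NF-Y and was searched as CCAAT, was found in 18 of the 32 genes (56.2%) against 41.1% of all genes. The GC box, which binds Sp1 and was searched as GGGCGG, was found in 25 (78.1%) against 38.2%, or 57.3% of the genes that were also tested here. Neither was particular to the set. In other replication genes, S phase regulators and mitosis genes the GC box stood at 78%, 86.7% and 82.4%. The CCAAT box stood there at 50%, 46.7% and 88.2%.

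**Figure D1:**
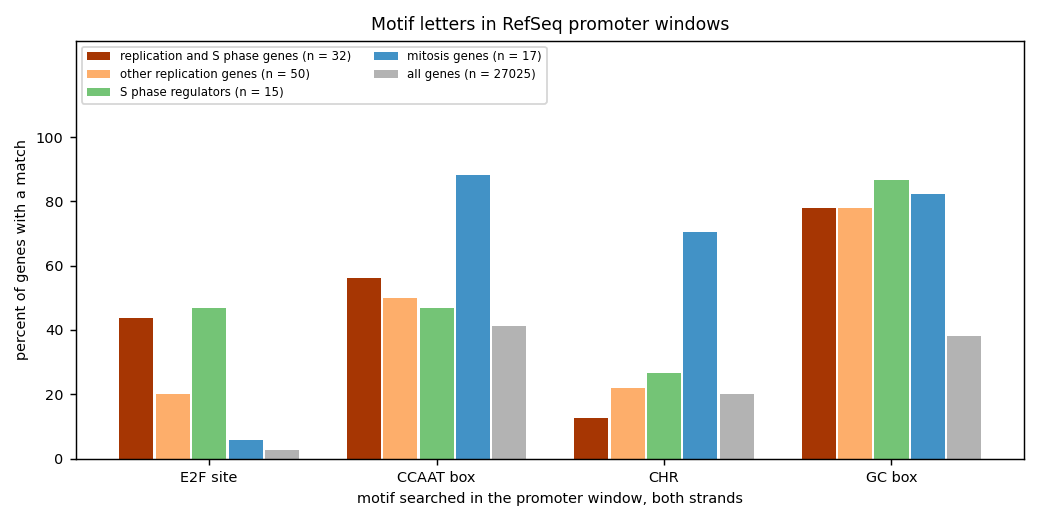
Bars give the percent of genes whose RefSeq promoter window holds each motif on either strand, for 5 sets of genes. The E2F letters stand at 43.8% in the replication and S phase genes, 46.7% in the S phase regulators, 20% in other replication genes, 5.88% in the mitosis genes and 2.6% in all genes, and the CHR stands at 12.5% in the first set and 70.6% in the mitosis genes.

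Values below are log2 of the deposited probe set intensities, and each difference subtracts the control mean from the MSI2-inducible mean. Correlations over genes were 0.979 to 0.989 among control arrays, 0.976 between the MSI2-inducible arrays and 0.965 to 0.986 between the groups. The control mean of mouse Msi2 itself was 11.72 ± 0.04 (SD, n = 3) and its MSI2-inducible mean 11.22 ± 0.30 (SD, n = 2), with 7 of its 8 probe sets lower. The labels do not say whether a probe set can read the transgene, so this checks nothing about them. Of the listed stem and progenitor markers, 8 of 10 had a value and all 8 lay above the median of all probe sets (5.57), while Ly6a, which encodes Sca1, had none. Their summed level (log2 of summed intensity) ranged from 13.06 to 13.19 in control and from 12.75 to 13.25 in MSI2-inducible arrays. The difference was below 0 for 6 of the 8. Slamf1 (-1.27) and Mecom (-0.58) were lower in both MSI2-inducible arrays, with unadjusted limma p of 0.0426 and 0.0240 and adjusted p of 0.883 and 0.870. MSI2-inducible replicate 1 had the highest summed level of the neutrophil, erythroid, macrophage and B cell markers among the arrays. All 9 measured neutrophil markers were highest there, and their median stood 1.99 above the control mean in that array and 0.95 below it in MSI2-inducible replicate 2 (-0.95). The summed level of the neutrophil markers ranged from 13.80 to 14.70 in control and from 13.52 to 15.93 in MSI2-inducible arrays. The summed level of the 7 measured erythroid markers ranged from 10.27 to 10.78 and from 10.67 to 11.96. Of these markers, 6 were highest in MSI2-inducible replicate 1, whereas Gata1 read 6.91 there and 7.09 to 7.61 in control arrays. Epor read 8.30 and 7.89 in MSI2-inducible replicates 1 and 2 and 6.57 to 7.24 in control arrays, a difference of 1.16. Its unadjusted limma p was 0.00450 and its adjusted p 0.616. Among the 7 erythroid markers, 2 had a difference below 0. Summed B cell markers ranged from 8.34 to 9.35 and from 9.54 to 9.998, T and NK cell markers from 9.30 to 10.09 and from 9.29 to 9.52, and macrophage markers from 10.11 to 10.50 and from 9.75 to 10.92. The B cell sum depended much on Vpreb1, at 7.24, 4.60 and 8.36 in control and 9.03 and 8.87 in MSI2-inducible arrays. Of the 7 measured B cell markers, 3 had a difference below 0. Signal at or above the median of all probe sets was seen for 6 of 9 neutrophil, 6 of 7 erythroid, 2 of 7 B cell (Cd79b and Vpreb1), 1 of 7 T and NK cell (Nkg7) and 4 of 7 macrophage markers (Csf1r, Cd68, C1qb and Vcam1). The part of other cell types in the differences below was not tested.

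Replication and S phase genes did not differ detectably between the genotypes. With limma and Benjamini-Hochberg adjustment over all genes, 0 of the 36 were higher and 0 lower at an adjusted p of 0.05, against 0.0165% and 0.0055% of all genes. At an unadjusted p under 0.05 the count was also 0 of 36, against 5.64% of all genes, and the lowest adjusted p among them was 0.894. Differences ran from -0.56 for Tyms to 0.50 for Mcm10. The median difference was 0.06, with 20 genes above 0 and 16 below, beside a median of 0.00189 and 50.4% above 0 over all genes tested. Without control replicate 2 the median of the 36 genes was 0.00554.

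The intervals give the size of change that these arrays leave room for. For 30 of the 36 genes (83.3%) the limma 95% interval lay inside a 2-fold change in either direction, which held for 71.9% of all genes. It held for 66.4% of the genes at or above the median of all probe sets, where all 36 lay. The exceptions among the 36 were Orc1, Tyms, Mcm10, Gins3, Rfc4 and Rfc5. Standard errors ran from 0.16 to 0.37 on the log2 scale. A difference of more than 0.5 in either direction was seen in 2 of the 36 genes (5.56%), Tyms and Orc1, against 13.4% of all genes. A miss at the threshold does not show that the levels were equal, and 2 arrays in 1 group limit the precision.

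**Figure D2:**
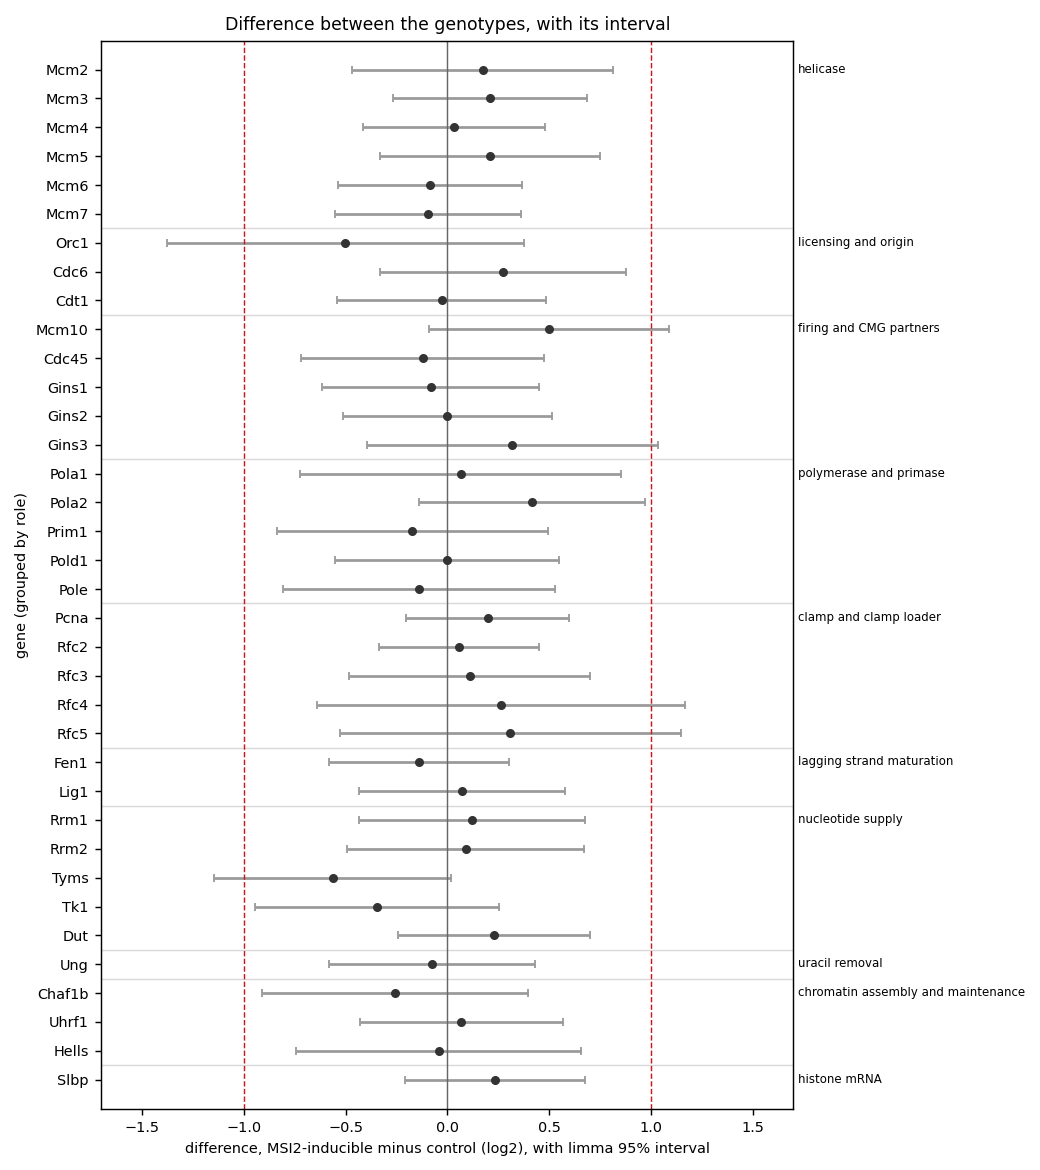
Points are the log2 difference between MSI2-inducible and control arrays for each of the 36 genes, ordered by role, and bars are limma 95% intervals. Every interval includes 0, and 30 of them stay between the dashed lines at -1 and 1.

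**Figure D3:**
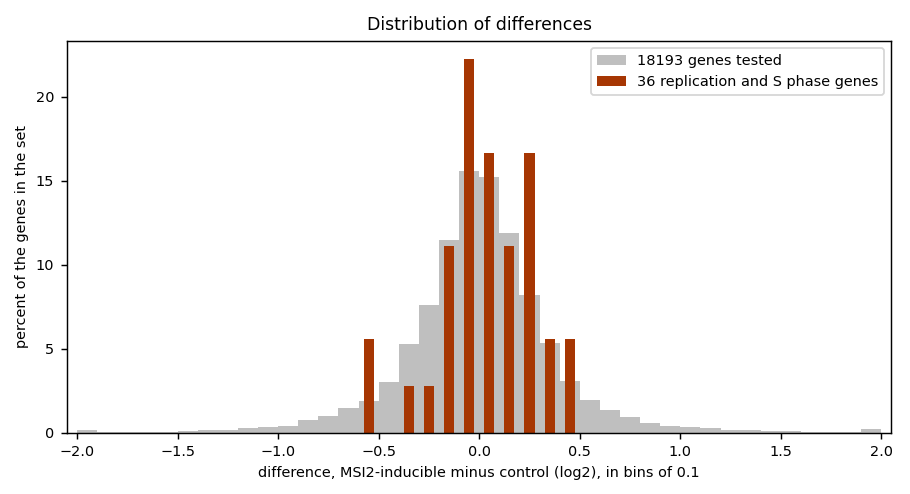
Bars give the percent of genes per bin of 0.1 in the log2 difference, in grey for the 18193 genes tested and in brown for the 36 replication and S phase genes, with values beyond the axis gathered in the end bins. The 36 genes stay between -0.56 and 0.50, with a median of 0.06.

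The helicase ring genes differed by -0.10 to 0.21, and none passed the test. For Mcm2 the control replicates 1, 2 and 3 read 9.76, 10.09 and 9.31, and the MSI2-inducible replicates 1 and 2 read 9.88 and 9.90. Both MSI2-inducible values fell inside the control range, and the difference was 0.17 (SE 0.26, limma adjusted p 0.965). Mcm5 lay at 11.20, 10.83 and 11.29 in control and at 11.48 and 11.16 in MSI2-inducible arrays, a difference of 0.21 (SE 0.22, limma adjusted p 0.946). The groups overlapped, and 2 other Mcm5 probe sets pointed the other way, at -0.27 and -0.69. Mcm3 differed by 0.21, Mcm4 by 0.03, Mcm6 by -0.09 and Mcm7 by -0.10. All 5 probe sets of Mcm3 were higher in MSI2-inducible arrays, by 0.12 to 0.50. With one of them the unadjusted limma p was 0.031 and the adjusted p, over all probe sets, 0.842. For Mcm5, Mcm6 and Mcm7 the direction depended on the probe set.

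Among the licensing factors, Cdc6 and Orc1 stood on opposite sides of 0 and neither passed the test. Cdc6, the ATPase that helps load the helicase, lay at 9.21, 9.07 and 8.63 in control and at 9.43 and 9.05 in MSI2-inducible arrays. The arrays overlapped, with a difference of 0.27 (SE 0.25, limma adjusted p 0.937). Orc1, the largest subunit of the origin recognition complex, lay at 7.14, 7.50 and 7.57 in control and at 6.34 and 7.46 in MSI2-inducible arrays. Its difference of -0.50 (SE 0.36, limma adjusted p 0.922) rested on MSI2-inducible replicate 1, without which it was 0.06. That array is also the one with the highest neutrophil markers and the lowest value for 6 of the 8 measured stem and progenitor markers. Their part in the Orc1 value was not tested. Cdt1, the helicase loader that is destroyed once S phase begins, differed by -0.03.

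Mcm10, which helps to start the assembled helicase, had the largest positive difference. It lay at 8.38, 7.70 and 7.97 in control and at 8.55 and 8.49 in MSI2-inducible arrays. Both MSI2-inducible values were above every control value. The difference was 0.50 (SE 0.24, 95% interval -0.09 to 1.09, limma adjusted p 0.911), and all 3 Mcm10 probe sets were higher, by 0.35, 0.42 and 0.50. Its unadjusted limma p was 0.0828. The CMG partners differed less. Gins3 differed by 0.32 and its second probe set by 0.64, Cdc45 by -0.12, Gins1 by -0.08 and Gins2 by -0.000105.

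Polymerase and primase genes had no common direction. Pola2, the second subunit of DNA polymerase alpha, lay at 8.11, 8.26 and 7.99 in control and at 8.81 and 8.26 in MSI2-inducible arrays. Only MSI2-inducible replicate 1 was clearly higher, and the difference was 0.42 (SE 0.23, limma adjusted p 0.912). The probe sets of Pola2 disagreed widely, since another one above the median of all probe sets differed by -1.23. Prim1, the catalytic primase subunit, lay at 11.04, 10.40 and 10.44 in control and at 10.67 and 10.24 in MSI2-inducible arrays. Its groups overlapped, with a difference of -0.17 (SE 0.27, limma adjusted p 0.966). The catalytic subunits Pola1, Pold1 and Pole differed by 0.06, -0.0034 and -0.14. A dim second probe set of Pola1, with a mean of 3.86, differed by -1.25 (unadjusted limma p 0.00207, adjusted p 0.545 over all probe sets), and its low signal makes that size uncertain.

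The clamp and its loader were the role in which all 5 genes had a positive difference at the brightest probe set. Control replicate 2 held the lowest value of 4 of them. Pcna lay at 12.72, 12.59 and 12.73 in control and at 12.86 and 12.89 in MSI2-inducible arrays. The groups did not overlap, yet the difference was small, 0.20 (SE 0.16, 95% interval -0.20 to 0.60, limma adjusted p 0.927). It had 1 probe set. The loader subunits Rfc2, Rfc3, Rfc4 and Rfc5 differed by 0.06, 0.11, 0.26 and 0.31. The other probe set of Rfc3 differed by -0.14 and that of Rfc4 by -0.02, while those of Rfc2 differed by 0.11 and 0.09. With 1 array left out, Rfc3 fell as low as -0.10 and Rfc4 as low as -0.33. Rfc2 varied least of all 36 genes, with values from 11.39 to 11.51 over the arrays. Rfc4 lay at 10.47 in MSI2-inducible replicate 1 and at 9.29 in replicate 2, the widest gap of any of these genes within that group. Rfc5 lay at 8.55 in control replicate 2 and from 9.40 to 9.64 in the other 4 arrays, and without that array its difference was -0.0139.

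Neither lagging strand maturation gene passed the test. Fen1, the nuclease that trims Okazaki fragment flaps, lay at 12.96, 13.00 and 12.70 in control and at 12.77 and 12.72 in MSI2-inducible arrays. Both MSI2-inducible values fell inside the control range, with a difference of -0.14 (SE 0.18, limma adjusted p 0.955). Lig1, the ligase that joins the fragments, differed by 0.07.

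Nucleotide supply held the largest negative difference. Tyms, thymidylate synthase, lay at 7.82, 8.13 and 7.70 in control and at 7.07 and 7.57 in MSI2-inducible arrays. Both MSI2-inducible values were below every control value. The difference was -0.56 (SE 0.24, 95% interval -1.15 to 0.02), with an unadjusted limma p of 0.0553 and an adjusted p of 0.894. All 4 Tyms probe sets were lower, by -0.35 to -0.74, and 2 of them were dim, below that overall median. Without MSI2-inducible replicate 1 the difference of the brightest was -0.31.

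Tk1, thymidine kinase of the salvage route, lay at 9.19, 8.50 and 8.94 in control and at 8.51 and 8.55 in MSI2-inducible arrays. Control replicate 2 was as low as the MSI2-inducible arrays, and the difference was -0.35 (SE 0.24, limma adjusted p 0.922). Rrm2, the regulated subunit of ribonucleotide reductase, lay at 11.70, 11.36 and 11.61 in control and at 11.93 and 11.36 in MSI2-inducible arrays. Its groups overlapped, with a difference of 0.09 (SE 0.24, limma adjusted p 0.982), and the other subunit gene, Rrm1, differed by 0.12. Dut, which breaks down dUTP and so keeps uracil out of DNA, lay at 12.18, 11.77 and 11.98 in control and at 12.18 and 12.24 in MSI2-inducible arrays. The difference was 0.23 (SE 0.19, limma adjusted p 0.930), and its other probe set differed by -0.28. Ung, the glycosylase that removes uracil from DNA, differed by -0.08.

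Chromatin genes showed no shared shift. Chaf1b, the p60 subunit of chromatin assembly factor 1, lay at 9.48, 8.86 and 9.58 in control and at 8.95 and 9.15 in MSI2-inducible arrays. The groups overlapped, and the difference was -0.26 (SE 0.27, limma adjusted p 0.945). Uhrf1, which brings DNA methylation to newly copied DNA, lay at 10.74, 10.27 and 10.39 in control and at 10.52 and 10.56 in MSI2-inducible arrays. Both MSI2-inducible values fell inside the control range, with a difference of 0.07 (SE 0.20, limma adjusted p 0.982). Hells, a chromatin remodeller, differed by -0.04 and its 2 other probe sets by 0.33 and -0.16.

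Slbp binds the stem-loop of replication-dependent histone mRNAs and so ties histone supply to S phase. It lay at 10.87, 10.70 and 11.03 in control and at 11.12 and 11.08 in MSI2-inducible arrays. The groups did not overlap, and the difference was 0.23 (SE 0.18, 95% interval -0.21 to 0.67, limma adjusted p 0.925). Its other probe sets differed by 0.33 and -0.12, the latter with a mean of 2.59, under the median of all probe sets.

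Arrays that did not overlap between the groups were no more frequent here than elsewhere. Mcm10, Pcna and Slbp were higher in both MSI2-inducible arrays, 3 of 36 (8.33%) against 9.27% of all genes, and Tyms was lower in both, 1 of 36 (2.78%) against 9.39%.

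**Figure D4:**
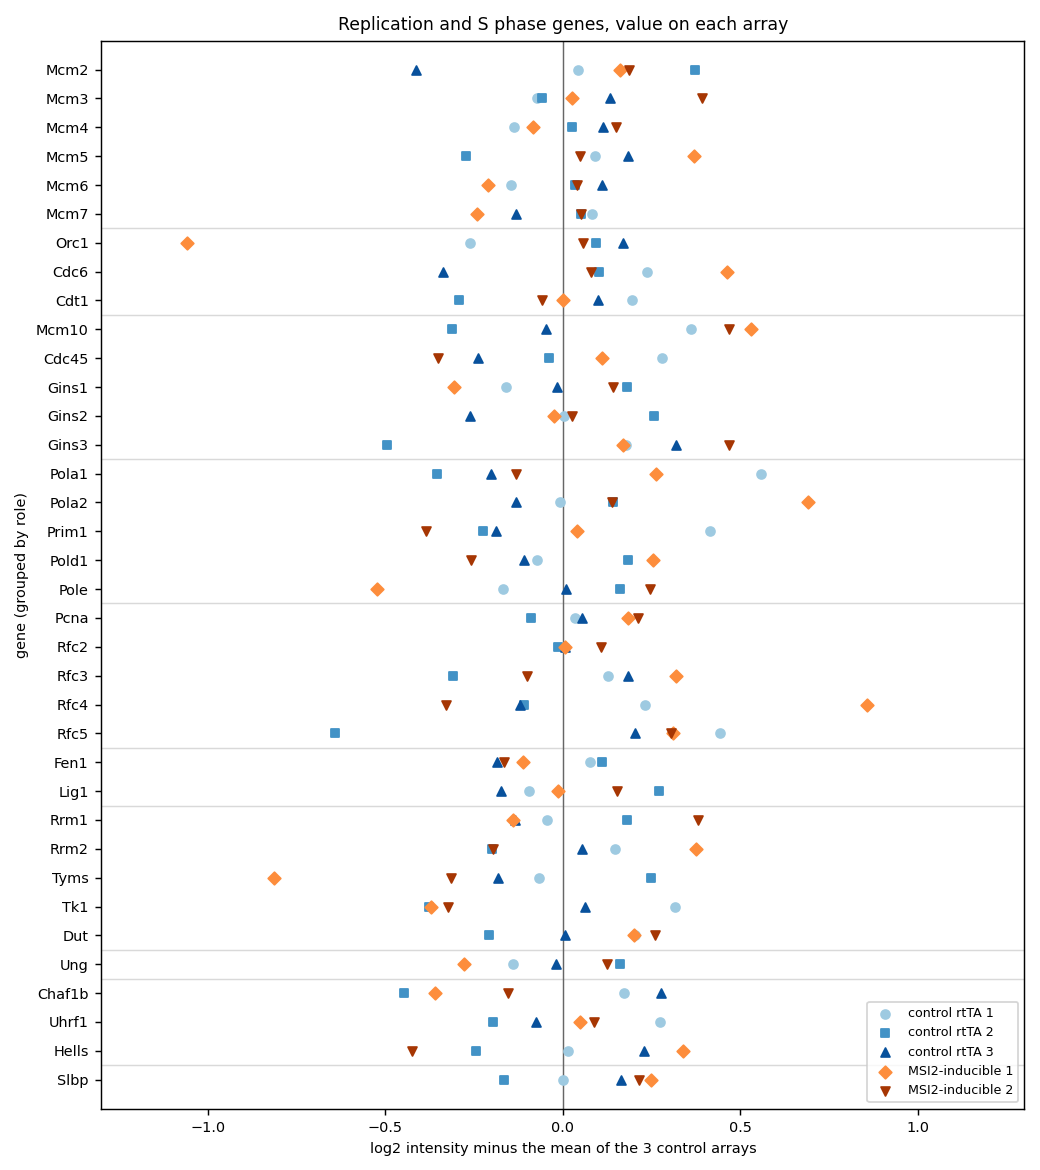
Points give each gene's log2 intensity on each array minus the mean of the 3 control arrays, with control arrays in blue and MSI2-inducible arrays in orange and brown, ordered by role. The colours mix in most rows. Orc1 and Tyms lie far to the left and Rfc4 far to the right in MSI2-inducible replicate 1.

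Variation between the arrays was close to that over all genes and a little lower than over genes of comparable signal. The median range of a gene over the 5 arrays was 0.60, against 0.65 over all genes. The median absolute gap between the MSI2-inducible replicates was 0.31, against 0.30 over all genes. The median absolute difference between the genotypes was 0.14, against 0.18 over all genes. A gap between single arrays varies more than a difference of means, so the gap and the difference cannot be compared directly. Relative to the control mean, the set's median was 0.06, -0.05 and -0.01 in control replicates 1, 2 and 3 and 0.04 and 0.07 in MSI2-inducible replicates 1 and 2. Control replicate 1 thus lay between the MSI2-inducible arrays. Control replicate 2 held the lowest value of 15 of the 36 genes (41.7%), and the lowest value of 20.8% of all genes. The same array had the highest ratio of 3' to 5' Gapdh signal, 2.60 on the log2 scale against 2.14 to 2.40 in the other arrays, and a beta-actin ratio of -0.15, where the others ranged from -0.15 to 0.01. The part of RNA quality in these values was not tested. Residual standard deviations had a median of 0.25, the same as over all genes tested. All 36 genes lay above the median of all probe sets. Over the 10559 genes at or above it, the median range was 0.72 and the median replicate gap 0.34. There the median absolute difference was 0.20 and the median residual standard deviation 0.28.

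Several probe sets were available for 29 of the 36 genes, and 82 in all. Of these, 0 passed limma's test at an adjusted p of 0.05 over all probe sets, against 0.00444% of 45037, and 2 had an unadjusted p under 0.05, against 5.68%. Differences were above 0 for 42 of the 82. In 27 genes more than 1 probe set lay at or above the median of all probe sets. These pointed the same way in 17 genes, higher in 9 and lower in 8, and opposite ways in 10. Every probe set was higher in Mcm2, Mcm3, Mcm4, Mcm10, Gins3, Rfc2, Rrm1 and Rrm2, and every one was lower in Orc1, Cdt1, Cdc45, Gins1, Gins2, Pold1, Fen1 and Tyms.

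**Figure D5:**
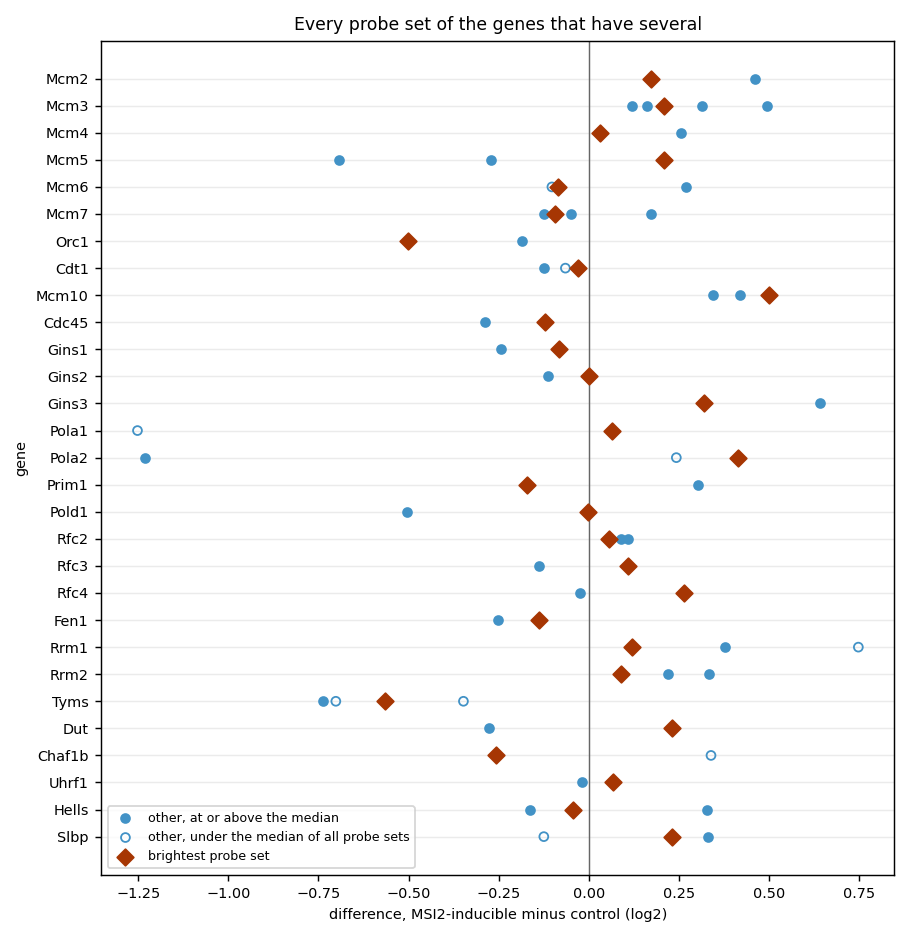
Points give the log2 difference of every probe set for the 29 genes that have several. Brown diamonds are the brightest probe set and open circles lie under the median of all probe sets. The 3 Mcm10 probe sets lie between 0.35 and 0.50 and the 4 Tyms probe sets between -0.74 and -0.35, while Pola2 spans -1.23 to 0.42.

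Genes with and without E2F letters in the promoter window had differences on both sides of 0. The median difference was 0.07 for the 14 genes with the letters and 0.12 for the 17 measured genes with a window and no match, with 8 and 10 genes above 0. Orc1, whose stretch is printed above, had the lowest difference among those with the letters (-0.50) and Gins3 the highest (0.32). Tyms (-0.56) and Mcm10 (0.50), the extremes of the whole set, had no match.

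Other replication genes, a list of 59 of which 57 had a value, gave 0 genes past limma's test in either direction. At an unadjusted p under 0.05, 0 were higher and 2 lower, against 5.64% of all genes in either direction. Their median difference was 0.07, with 32 above 0. Orc5 differed by 0.80, or by 0.31 without MSI2-inducible replicate 1. Orc6 differed by 0.52 and Gmnn, which encodes the Cdt1 inhibitor geminin, by 0.33. Rpa3, the smallest subunit of the single-strand binding protein, differed by -0.68, or by -0.29 without MSI2-inducible replicate 2. Mcm9 differed by -0.63 and Dscc1, part of an alternative clamp loader, by -0.47. Their limma adjusted p lay between 0.870 and 0.911. Gmnn lay at 10.69, 10.57 and 10.68 in control and at 10.96 and 10.99 in MSI2-inducible arrays, and the groups did not overlap.

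Regulators of S phase entry showed wider differences and a wider spread, and none passed the test. Of 21 measured genes, 0 passed, and the median difference was 0.14. At an unadjusted limma p under 0.05, 2 were higher and 0 lower, against 5.64% of all genes in either direction. The median residual standard deviation was 0.35, against 0.25 over all genes. The median absolute gap between the MSI2-inducible replicates was 0.50, against 0.30. Relative to the control mean, the median of the list was 0.28 in MSI2-inducible replicate 1 and -0.0246 in replicate 2. Replicate 1 held the highest value of 11 of the 21 genes (52.4%), against 28.5% of all genes, and the sign of the list's median rested on that array. The part of other cell types in it was not tested. Cdkn1a, the CDK inhibitor p21, lay at 8.07, 6.55 and 7.71 in control and at 8.39 and 8.96 in MSI2-inducible arrays. Both MSI2-inducible values were above every control value, with a difference of 1.23 (SE 0.47, limma adjusted p 0.883), or 0.79 without control replicate 2. The activator E2f2 differed by 0.64 and was higher in both MSI2-inducible arrays, E2f3 by -0.46 and lower in both, and the repressor E2f7 by -1.05. Without MSI2-inducible replicate 1 the difference was 0.31 for E2f2 and -0.28 for E2f7. Ccne1, a cyclin of S phase entry, lay at 9.40 in MSI2-inducible replicate 1 and between 6.86 and 7.19 in the other 4 arrays. Its difference of 1.20 was -0.02 without that array. Rbl2, which encodes the pocket protein p130, differed by -0.40, and by -0.0882 without MSI2-inducible replicate 1. The limma adjusted p of E2f2, E2f3, E2f7, Ccne1 and Rbl2 lay between 0.883 and 0.922. Among the 21 genes, the groups did not overlap for 4 higher (19.0%) and 1 lower (4.76%), against 9.27% and 9.39% of all genes.

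Mitosis genes gave no call either. Of 19 measured genes, 0 passed limma's test, and 0 reached an unadjusted p under 0.05, against 5.64% of all genes. The difference was below 0 for 13, with a median of -0.06. Among the 19, the groups did not overlap for 1 higher and 1 lower gene (5.26% each), against 9.27% and 9.39% of all genes. Aurkb, the mitotic kinase Aurora B, differed by -0.49 and was lower in both MSI2-inducible arrays, and the difference was -0.24 without MSI2-inducible replicate 2. Plk1 differed by -0.30 and Birc5 by -0.25, while Cenpe differed by 0.17, Cdk1 by 0.14 and Tpx2 by 0.09. Relative to the control mean, the median of the mitosis genes was 0.12, -0.21 and 0.02 in control replicates 1, 2 and 3 and -0.11 and -0.04 in the MSI2-inducible replicates. Control replicate 2 thus had the lowest median of both the mitosis and the replication genes.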

How the data were processed

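The authors deposited probe set intensities on a linear scale. The submitters' processing notes name R 2.11.0, the affy package and RMA, without saying how log values were turned back to linear ones. Array medians lay between 46.4 and 48.3 intensity units. Log2 was taken with no pseudocount. Gene names came from the platform annotation, with symbols updated by Entrez ID through the GRCm38.p6 gene table, and each gene was read from its brightest probe set. Of 45101 probe sets, 64 were array controls, 34945 had 1 symbol, 932 several and 9160 none.

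The 3 control and 2 MSI2-inducible arrays were compared by a two-sided limma test (version 3.58.1, under R 4.3.3), using lmFit, eBayes without trend or robust options, and Benjamini-Hochberg adjustment over 18193 genes. The fit was tested on simulated data with independent noise and changes larger than any difference of the set. That test cannot say whether changes as small as those reported would be found. Per-array values are given for Mcm2, Mcm5, Cdc6, Pcna, Rrm2, Slbp and Uhrf1 whatever their result (Chaf1a, also listed, had no value), and for the 6 lowest p-values among higher and among lower genes. The other lists are named by the 3 lowest p-values on each side. Details on the other genes were chosen after their values were seen. The genes and lists were chosen with earlier results of these data known. Promoter sequences are RefSeq's. Alternatives covered array weights, centring, quantile normalization, low values, probe set choice, trend and robust options, a replicate block, a looser threshold and each array left out.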

Additional observations from a re-analysis of the deposited data

How the results depend on the processing

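All 15 alternatives left 0 of the 36 genes called in either direction by limma, with a lowest adjusted p of 0.312, and the cause of the shifts below was not tested. In these alternatives 10 genes kept their sign: Cdc6, Gins3, Mcm3, Mcm10, Pcna, Rfc2 and Slbp above 0 and Fen1, Tk1 and Tyms below it. The other 26 turned at least once, and none of their values passed the test. Leaving out low values, trend and robust options, the looser threshold and the fit over all probe sets left each brightest probe set's difference unchanged. They could therefore not turn a sign. Cdc6, Pcna and Tk1 had 1 probe set, so the choice of probe set could not turn them either. With 1 array left out, Cdc6, Gins3, Mcm3 and Rfc2 fell as low as 0.0797, 0.07, 0.0243 and 0.00691. The median difference of 0.06 became 0.00485 when each gene was given the median of its probe sets, with 18 of 36 genes above 0, whereas the median over the 82 probe sets themselves was 0.0441. It ran from 0.00554 to 0.0683 with 1 array left out. Array weights turned Gins2 to 0.0638, Pola1 to -0.017 and Pold1 to 0.0413. Centring each array turned Gins2 to 0.0193 and Pold1 to 0.016. The mean of a gene's probe sets turned Mcm5 to -0.25, Mcm6 to 0.0269, Pola1 to -0.59, Pola2 to -0.19, Prim1 to 0.0647, Rfc3 to -0.0155, Dut to -0.0231, Chaf1b to 0.0405, Hells to 0.0399 and Cenpe to -0.12. Leaving out probe sets whose names end in _x_at or _s_at, which can match several transcripts, turned Mcm5 to -0.27, Mcm6 to 0.27, Mcm7 to 0.17 and Rfc4 to -0.0243. With the replicate number as a block the median was 0.0250, and the block turned Mcm2 to -0.0335, Cdt1 to 0.0201, Pola1 to -0.0366, Lig1 to -0.0179 and Hells to 0.0713. Nothing in the labels pairs the arrays, the deviations of the 2 same-numbered pairs correlated at 0.134 and 0.0990, and this fit uses the arrays that remain without control replicate 3. With 1 array left out, the differences that turned ran from -0.0335 to 0.36 for Mcm2, -0.0856 to 0.15 for Mcm4, -0.21 to 0.0399 for Mcm6, -0.24 to 0.0506 for Mcm7, -1.06 to 0.0568 for Orc1 and -0.18 to 0.0679 for Cdt1. Others ran from -0.35 to 0.11 for Cdc45, -0.31 to 0.14 for Gins1, -0.13 to 0.13 for Gins2, -0.13 to 0.34 for Pola1, -0.39 to 0.0408 for Prim1 and -0.26 to 0.25 for Pold1. Others ran from -0.52 to 0.25 for Pole, -0.10 to 0.32 for Rfc3, -0.33 to 0.86 for Rfc4, -0.0139 to 0.53 for Rfc5, -0.0179 to 0.20 for Lig1 and -0.14 to 0.38 for Rrm1. Others ran from -0.20 to 0.37 for Rrm2, -0.28 to 0.13 for Ung, -0.0299 to 0.20 for Uhrf1 and -0.42 to 0.34 for Hells. Outside the set they ran from -0.0246 to 2.42 for Ccne1, -0.068 to 0.24 for Cdk1 and -0.50 to 0.0171 for Plk1. A fit with 1 MSI2-inducible array takes its spread from the control arrays. The number of arrays limits the precision.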
